A study of Mus musculus with 35 samples.

Results

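The 34 genes described here encode the machinery of DNA replication and mitosis and the E2F and RB proteins that time its transcription. They were taken as a named set, and a peak belonged to a gene when the authors' annotation gave that gene as the nearest one. They are 34 of the 23852 genes named in any of the 33 deposited peak lists. By role, 15 act at the G1/S transition and in replication, 12 in G2/M and mitosis, and 7 are E2F or RB family members. The lists come from chromatin immunoprecipitation sequencing of mouse pre-B cell progenitors that grow attached to stroma. The IKDN cells came from mice labelled IKDN CD2 Cre, a label that names a dominant-negative form of the lymphoid transcription factor Ikaros and a Cre recombinase under the lymphoid CD2 promoter. The WT cells came from WT mice, whose label names no Cre. Both were used at passages 3 to 8, and each genotype has 1 library per target, so nothing measures how cultures of a genotype vary, and no difference carries an error or a test.

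In dividing cells RB and its relative p107, the product of Rbl1, hold E2F factors in check until cyclin-dependent kinases phosphorylate them. Free activator E2Fs (E2f1 to E2f3) then switch on the genes of replication, while the atypical E2Fs (E2f7 and E2f8) repress the same genes later in S phase. Genes of G2 and mitosis are kept silent earlier in the cycle by the DREAM complex, which docks on a promoter element called the CHR, and are later switched on by B-MYB and FOXM1, often with the CCAAT-binding factor NF-Y. Early B cell progenitors divide fast under interleukin 7, and Ikaros is known to restrain that proliferation as they differentiate.

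RefSeq (GRCm38.p6) gave a promoter of 300 bases for 29 of the 34 genes, the exceptions being Aurkb, Ccna2, Ccne2, Mcm4 and Rb1. On both strands, one of 4 E2F motifs (TTTCCCGC, TTTGGCGC, TTTCGCGC or TTTGCCGC) was found in 7 of 13 G1/S promoters, 4 of 6 E2F and RB promoters and 1 of 10 mitotic promoters, against 3.02% of 15207 promoters of protein-coding genes. The CHR letters (TTTGAA, or TTTAAA, which reads the same on both strands) were found in 9 of 10 mitotic, 4 of 13 G1/S and 2 of 6 E2F and RB promoters, against 23.4% of all. CCAAT was present in 10 of 10 mitotic promoters and in 23 of all 29, against 38.8% of all. A match is a description of the letters, not evidence of binding. The promoters of 5 genes whose H3K27ac coverage differed between the genotypes follow, with E2F and CHR matches in capitals, so that the letters at the start site can be read beside the peaks. Mcm6, a subunit of the replicative helicase, lies at chr1:128359656-128359955 on the minus strand, and its longer run of capitals is a pair of overlapping E2F matches. E2f8 lies at chr7:48881547-48881846 on the minus strand, E2f7 at chr10:110745189-110745488 on the plus strand, Bub1b, a spindle checkpoint kinase, at chr2:118597961-118598260 on the plus strand, and Cdk1, the kinase that drives entry into mitosis, at chr10:69352863-69353162 on the minus strand.
Mcm6: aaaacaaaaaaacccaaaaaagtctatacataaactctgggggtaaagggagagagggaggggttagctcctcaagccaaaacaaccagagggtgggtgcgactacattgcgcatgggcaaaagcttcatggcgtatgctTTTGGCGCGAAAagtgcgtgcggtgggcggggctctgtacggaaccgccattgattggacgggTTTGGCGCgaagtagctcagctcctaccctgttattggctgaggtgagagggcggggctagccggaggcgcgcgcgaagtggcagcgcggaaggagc
E2f8: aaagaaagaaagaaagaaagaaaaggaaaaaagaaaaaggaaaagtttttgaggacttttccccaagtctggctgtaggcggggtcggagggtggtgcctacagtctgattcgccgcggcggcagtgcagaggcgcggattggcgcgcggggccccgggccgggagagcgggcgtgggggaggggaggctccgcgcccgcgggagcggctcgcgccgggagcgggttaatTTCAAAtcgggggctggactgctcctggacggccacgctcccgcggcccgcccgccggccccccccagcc
E2f7: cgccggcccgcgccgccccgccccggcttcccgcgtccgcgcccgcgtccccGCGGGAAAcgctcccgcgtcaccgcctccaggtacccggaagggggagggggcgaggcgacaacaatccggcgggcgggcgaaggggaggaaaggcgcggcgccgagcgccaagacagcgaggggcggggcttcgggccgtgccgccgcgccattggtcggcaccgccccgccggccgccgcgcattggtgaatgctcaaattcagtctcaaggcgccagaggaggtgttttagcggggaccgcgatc
Bub1b: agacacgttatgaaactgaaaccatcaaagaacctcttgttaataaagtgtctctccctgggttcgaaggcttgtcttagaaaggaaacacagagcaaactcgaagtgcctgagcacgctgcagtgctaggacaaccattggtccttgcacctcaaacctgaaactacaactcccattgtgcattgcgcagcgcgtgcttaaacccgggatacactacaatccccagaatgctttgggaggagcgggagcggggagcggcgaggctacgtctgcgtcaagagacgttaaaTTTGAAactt
Cdk1: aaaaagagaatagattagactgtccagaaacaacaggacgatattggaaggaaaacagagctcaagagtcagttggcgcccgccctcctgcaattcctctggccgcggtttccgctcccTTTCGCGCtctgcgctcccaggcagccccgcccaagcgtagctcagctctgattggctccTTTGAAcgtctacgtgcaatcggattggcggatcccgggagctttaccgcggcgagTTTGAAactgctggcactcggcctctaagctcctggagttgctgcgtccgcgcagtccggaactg

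The lists held from 2802 peaks (IKDN Aiolos) to 86703 peaks (IKDN PAX5). The lists of the histone marks, of RNA polymerase II phosphorylated on serine 5 of its tail (RNAPII) and of the Mediator subunit MED1 covered all chromosomes, and 3 factor lists did not, as given with the factors. The IKDN H3K4me3 library carries the same antibody catalogue entry as H3K4me1, unlike the WT H3K4me3 library. Its size, inferred from the steps between low peak scores, was the smallest of all lists whose size could be inferred, at 10.7 Mtags (mega-tags, a tag being a mapped read). The H3K27ac libraries were close in inferred size (25.6 Mtags in IKDN, 25.2 in WT), and RNAPII had 24.2 Mtags in IKDN and 34.7 in WT. Of 12 B lineage markers 9 had H3K27ac in both genotypes, with Vpreb1 at 0 in both, and the summed length was 133.8 kb in IKDN and 226.0 kb in WT. The 12 stromal markers summed to 36.8 kb in IKDN and 31.9 kb in WT, with Col1a2, Dcn and Lum at 0 in both. Sums were 22.2 kb in IKDN and 25.3 kb in WT over 8 T cell markers, with Cd3e, Cd3g and Cd8a at 0 in both, and 25.1 kb in IKDN and 16.2 kb in WT over 8 myeloid markers, with Mpo and Adgre1 at 0 in both. Their part in the results was not tested, and fewer cells of a kind cannot be told apart from less mark per cell.

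The replication and mitosis genes with a RefSeq promoter carried active promoter marks in IKDN as in WT cells. H3K27ac, a mark of active promoters and enhancers, H3K4me2, H3K4me3, the promoter mark, and RNAPII overlapped the kilobase on either side of the start site at 29 of the 29 genes with a RefSeq promoter, in IKDN as in WT cells. Among protein-coding genes with an H3K4me3 promoter peak, called active genes here, the shares were 86.2% in IKDN and 85.3% in WT for H3K27ac, 97.5% and 94.8% for H3K4me2, 94.6% and 96.0% for H3K4me3, and 82.7% and 80.7% for RNAPII. Active genes were chosen by an H3K4me3 peak in either genotype, so their H3K4me3 share is high by definition. For H3K4me2 and H3K4me3 the members were near this background. RNAPII peaks were centred within 1 kb of the start at 14 of the 34 members in IKDN and 10 in WT, against 60.2% and 59.0% of active genes. The first measure counts any overlap and the second the centre of the peak. The Polycomb mark H3K27me3 overlapped none of the 29 in either genotype, where active genes had it at 22.2% in IKDN and 26.7% in WT. Summed over the 34 genes, H3K27ac peaks covered 154.7 kb in IKDN and 157.8 kb in WT cells, and the median gene had 4.28 kb in IKDN and 3.56 kb in WT. The promoter peaks of the members ranked high within their own lists, at a median percentile of 88.2 in IKDN and 93.0 in WT for H3K27ac, and 87.4 and 86.7 for H3K4me3. These ranks are among all peaks of a list, distal ones included. Promoter peaks of active genes were not ranked beside them. Of the IKDN H3K27ac peaks at these genes 76.2% (95% exact Clopper-Pearson interval 63.8 to 86.0, 48 of 63) overlapped a WT peak, against 59.6% of all IKDN peaks. Of the WT peaks 83.6% (71.2 to 92.2, 46 of 55) overlapped an IKDN peak, against 67.9% of all. Among the peaks of active genes the shares were 62.7% in IKDN and 72.7% in WT. Both are nearer to those of the members, and the WT share lies within the members' interval. The unshared peaks lay mostly away from start sites: 33 of 34 IKDN peaks near a start site were shared and 15 of 29 distal ones. That split was not made for all peaks or for peaks of active genes, so it is not a trait of the members. The intervals given cover counting error only.

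A gene was called higher or lower in IKDN when its covered length differed by at least 1000 bp and 1.5 times, a threshold of size and not a test. For H3K27ac 4 of the 34 genes were higher and 3 lower, where 17.8% of 11060 active genes were higher and 13.4% lower. Over all 20305 protein-coding genes the shares were 13.9% and 10.9%. For H3K4me1, an enhancer mark, 4 were higher and 6 lower (active genes 18.6% and 17.9%). For H3K4me2 none was higher and 1 was lower (11.5% and 10.3%), and for H3K4me3 none was higher and 2 were lower (4.72% and 10.5%). For H3K27me3 1 was higher and 5 were lower (14.1% and 23.6%). For H3K36me3, a mark of transcribed gene bodies, 2 were higher and 2 lower (25.2% and 7.67%), for RNAPII 7 were higher and 9 lower (24.8% and 21.6%), and for MED1 15 were higher and none lower (37.8% and 1.25%). Over all protein-coding genes the higher and lower shares were 15.3% and 14.4% for H3K4me1, 10.4% and 9.03% for H3K4me2, 3.1% and 6.88% for H3K4me3, 17.6% and 20.8% for H3K27me3, 17.2% and 5.81% for H3K36me3, 18.0% and 16.3% for RNAPII, and 25.6% and 1.63% for MED1. The RNAPII and MED1 counts were near the background.

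Because the nearest-gene names can differ between lists, lengths were also taken within the gene and its 10 kb flanks from peaks of any name. There 2 members were higher and 3 lower for H3K27ac (active genes 16.4% and 10.7%), 4 and 8 for H3K4me1 (16.2% and 18.8%), 0 and 2 for H3K4me2 (9.14% and 7.26%), 3 and 6 for H3K27me3 (11.1% and 25.0%), and 15 and 0 for MED1 (48.7% and 0.516%). The H3K4me1 count was near the background. The H3K27ac calls there were Cdk1 and E2f7 (higher) and Mcm6, Top2a and Cdc6 (lower).

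**Figure D1:**
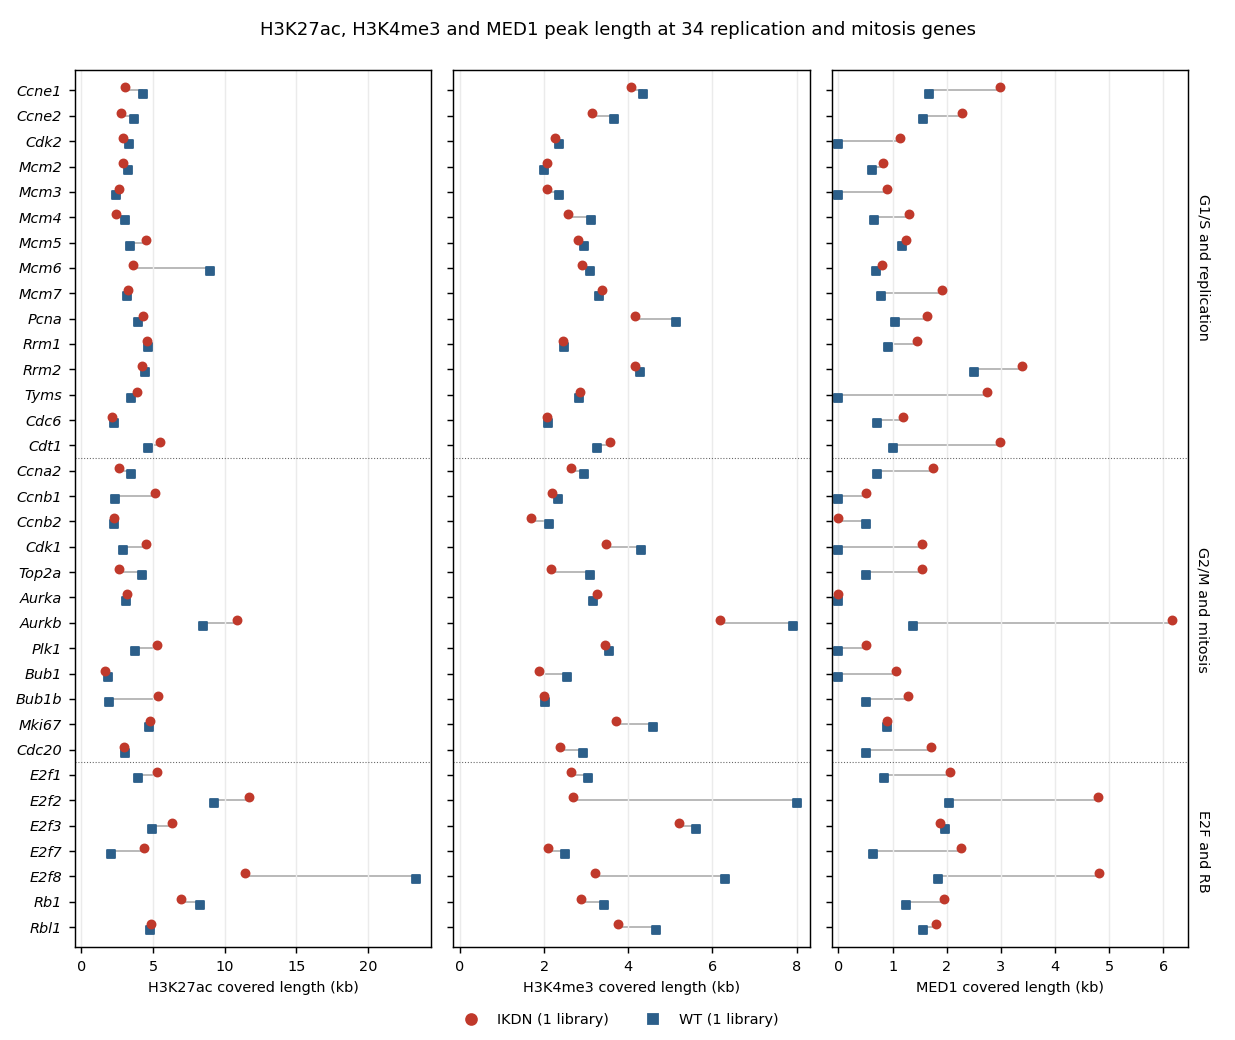
Covered length in kb of H3K27ac, H3K4me3 and MED1 peaks assigned to each of the 34 genes, with IKDN as red circles and WT as blue squares (1 library each), grouped by role. Most H3K27ac pairs lie close, Mcm6 and E2f8 stand out with less H3K27ac in IKDN (3.59 and 11.4 kb) than in WT (8.99 and 23.3 kb), and most MED1 points lie further right in IKDN.

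Of the 15 G1/S and replication genes none was called higher for H3K27ac and 1, Mcm6, was called lower. A further 3 lay outside a factor of 1.25: Ccne1 (3.06 kb in IKDN, 4.32 kb in WT), Ccne2 (2.74 and 3.68 kb) and Mcm5 (4.54 and 3.42 kb). The other 11 lay within it, and the sum was 52.7 kb in IKDN and 59.0 kb in WT. Mcm6 had 3.59 kb in IKDN and 8.99 kb in WT. Its promoter peak began 0.894 kb upstream of the start in IKDN and 2.17 kb upstream in WT. A further 3 WT peaks, which began 3.72, 10.4 and 14.9 kb upstream, overlapped no IKDN peak of any name, and the last 2 lie in introns of the neighbouring gene Dars. With peaks of any name within the gene and 10 kb flanks, Mcm6 had 4.09 kb in IKDN and 6.83 kb in WT. Of the other helicase subunits Mcm2 had 2.90 kb in IKDN and 3.25 kb in WT, Mcm3 2.65 and 2.44 kb, Mcm4 2.45 and 3.04 kb, and Mcm7 3.25 and 3.15 kb, each in IKDN and then WT. Pcna, the sliding clamp of the replicative polymerases, had 4.29 kb in IKDN and 3.97 kb in WT. The ribonucleotide reductase genes Rrm1 and Rrm2 had 4.60 and 4.26 kb in IKDN, against 4.68 and 4.44 kb in WT. Cdc6 and Cdt1, which load the helicase at origins, had 2.15 and 5.46 kb in IKDN, against 2.29 and 4.62 kb in WT. Over gene body and flanks Cdc6 was also called lower, with 3.67 kb in IKDN and 6.04 kb in WT.

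At the mitotic genes H3K27ac was called higher in IKDN at 3 of 12 and lower at 1, where 17.8% of active genes were higher and 13.4% lower. Over gene body and flanks 1 was higher and 1 lower (active genes 16.4% and 10.7%). These counts were near the background. By name H3K27ac was longer in IKDN at 7 of the 12, and the sum was 51.2 kb in IKDN and 42.2 kb in WT. Over gene body and flanks the sum was 58.0 kb in IKDN and 54.5 kb in WT. Bub1b had 5.31 kb in IKDN and 1.91 kb in WT, where the IKDN promoter peak ran to 4.11 kb downstream of the start and the WT peak ended at 1.37 kb. Cdk1 had 4.52 kb in IKDN and 2.92 kb in WT, also by extension into the gene, to 3.37 kb in IKDN and 2.13 kb in WT. Ccnb1, which codes for cyclin B1, the partner of Cdk1, had 5.16 kb in IKDN and 2.34 kb in WT. Its extra IKDN peak, 2.95 kb long and beginning 24.7 kb upstream in an intron of Slc30a5, overlapped a WT peak that the WT list names for another gene. Over gene body and flanks, with peaks of any name, Cdk1 stayed higher (4.52 kb in IKDN, 2.92 kb in WT), while Bub1b had 5.81 kb in IKDN and 4.28 kb in WT, and Ccnb1 4.21 kb in IKDN and 4.42 kb in WT, both short of the threshold. Aurkb gained more in length than Cdk1 without reaching 1.5 times, with 10.9 kb in IKDN and 8.51 kb in WT. Top2a, the topoisomerase that untangles sister chromatids, was lower by both measures, with 2.59 kb in IKDN and 4.23 kb in WT by name. Ccnb2, Cdc20, an activator of the anaphase-promoting complex, Aurka and Mki67 each lay within a factor of 1.25, with 2.28, 3.00, 3.19 and 4.82 kb in IKDN, against 2.29, 3.02, 3.12 and 4.73 kb in WT.

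For H3K27ac the 2 atypical E2F repressors differed in opposite directions, and by nearest-gene name E2f8 had the largest H3K27ac difference in kb of the 34 genes. E2f8 had 11.4 kb of H3K27ac in IKDN and 23.3 kb in WT. Its promoter peak was 3.35 kb long in IKDN and 5.19 kb in WT, and the upstream intergenic peaks were also shorter: the one that ends 5.57 kb upstream in IKDN was 2.06 kb long, against 3.82 kb in WT, and the farthest one was 1.2 kb long in IKDN and 5.51 kb in WT. The peak downstream of the gene was not shorter, with 2.47 kb in IKDN and 1.98 kb in WT. Over the gene and 10 kb flanks, which leave out the farther peaks, E2f8 had 8.99 kb in IKDN and 11.0 kb in WT and was not called. H3K4me3 at E2f8 was 3.21 kb in IKDN and 6.30 kb in WT, with upstream WT peaks of 0.770 and 1.29 kb that had no IKDN peak. H3K4me1 covered 27.8 kb in IKDN and 35.7 kb in WT, while MED1 went the other way, with 4.81 kb in IKDN and 1.83 kb in WT. E2f7 had 4.34 kb of H3K27ac in IKDN and 2.08 kb in WT: the promoter peaks were alike (2.0 kb in IKDN, 2.08 kb in WT), and 4 short IKDN peaks at 4.68, 7.18, 42.7 and 48.3 kb downstream of the start had no WT counterpart. Their authors' scores, 6.26 to 10.6, were far below the 144.3 of the IKDN promoter peak. With only peaks of score 10 or more and with equal numbers of top-scored peaks, the H3K27ac balance of the 34 genes was even.

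**Figure D2:**
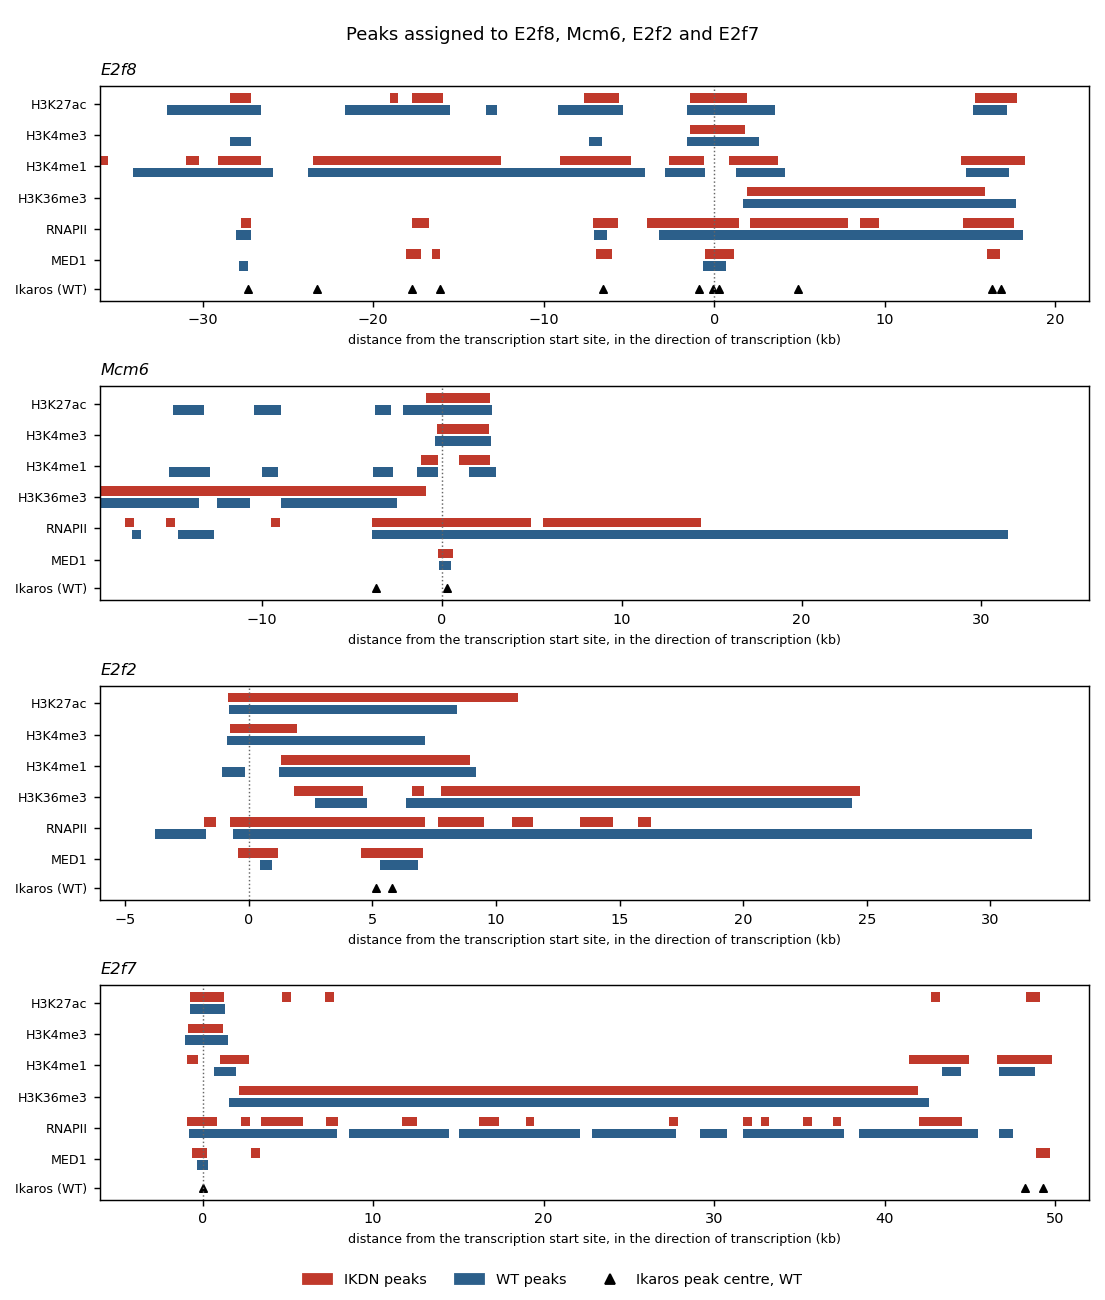
Peaks of 6 targets in IKDN (red, upper row of each pair) and WT cells (blue, lower row) at E2f8, Mcm6, E2f2 and E2f7, by distance in kb from the start site along the direction of transcription, with WT Ikaros peak centres as triangles. Only peaks the authors' annotation gives to the gene are drawn, so IKDN RNAPII peaks in the 3' part of Mcm6 that carry another gene name are missing, and H3K36me3 at Mcm6 runs past the left edge. The E2f8 upstream H3K27ac peaks and the E2f2 H3K4me3 peak are shorter in IKDN, and WT RNAPII covers E2f2 and E2f7 almost throughout, where the IKDN peaks leave gaps.

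E2f2, an activator E2F prominent in lymphoid cells, had the largest H3K4me3 difference. Its H3K4me3 peak was 2.68 kb long in IKDN and 8.00 kb in WT, running to 1.94 kb downstream of the start in IKDN and to 7.13 kb in WT. The whole H3K27ac peak at E2f2 was 11.7 kb long in IKDN and 9.24 kb in WT, short of the threshold. E2f1 and E2f3 had 5.30 and 6.29 kb of H3K27ac in IKDN, against 3.92 and 4.94 kb in WT, and Rb1 and Rbl1 had 6.93 and 4.85 kb in IKDN, against 8.30 and 4.81 kb in WT, none of them past the threshold. H3K4me3 was shorter in IKDN at 29 of the 34 genes, with a median ratio of 0.89. Over 9978 active genes covered in both lists that median was 0.91. The IKDN H3K4me3 library had a different antibody entry from WT and a small inferred size, and the WT size is unknown. The general shortening and the library therefore cannot be told apart. H3K4me1 was called lower at Ccnb2, Ccne2, Mcm2, Mcm6, Pcna and Rrm2 and higher at Cdk1, Mcm3, Mcm5 and E2f7. Mcm6 had 2.68 kb of it in IKDN and 7.02 kb in WT, and E2f7 9.06 and 4.57 kb, the same directions as their H3K27ac. Within the gene and its flanks the direction turned at Pcna (7.44 kb in IKDN, 5.90 kb in WT) and Mcm5 (3.51 and 4.21 kb), neither called there, and Mcm2 was not called either. The 1 gene lower for H3K4me2 was Ccne2, the cyclin E2 gene, with 4.19 kb in IKDN and 6.58 kb in WT.

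Over gene body and flanks E2f2 (3.01 kb in IKDN, 8.25 kb in WT), E2f8 (3.21 and 5.02 kb) and Top2a (2.31 and 3.48 kb) were called lower for H3K4me3, where 8.36% of active genes were lower and 2.92% higher.

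H3K36me3 was compared in length over the transcribed genes. By the nearest-gene name Cdk2, Mcm7, Pcna and Cdc20 had none in either genotype, although their gene bodies and flanks did. For H3K36me3 and RNAPII the gene window, with flanks of 10 kb and peaks of any name, was therefore used. All 34 genes were then covered in both genotypes and none was called, where 21.9% of active genes were higher and 3.12% lower. The sum was 807.1 kb in IKDN and 787.6 kb in WT, while over active genes it was 202573 kb in IKDN and 160162 kb in WT. The ratio lay between 0.8 and 1.25 at 30 of the 34 genes (88.2%), against 56.6% of 8368 active genes. Top2a had 36.1 kb in IKDN and 35.7 kb in WT, Mki67, which codes for the proliferation antigen Ki-67, 29.3 and 29.8 kb, and Mcm3 20.95 and 20.8 kb, in IKDN and then WT. The 4 genes outside that range were E2f3 (43.1 kb in IKDN, 59.1 kb in WT), Rb1 (66.5 and 53.0 kb), Plk1 (16.2 and 12.0 kb) and Pcna (9.51 and 7.27 kb).

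**Figure D3:**
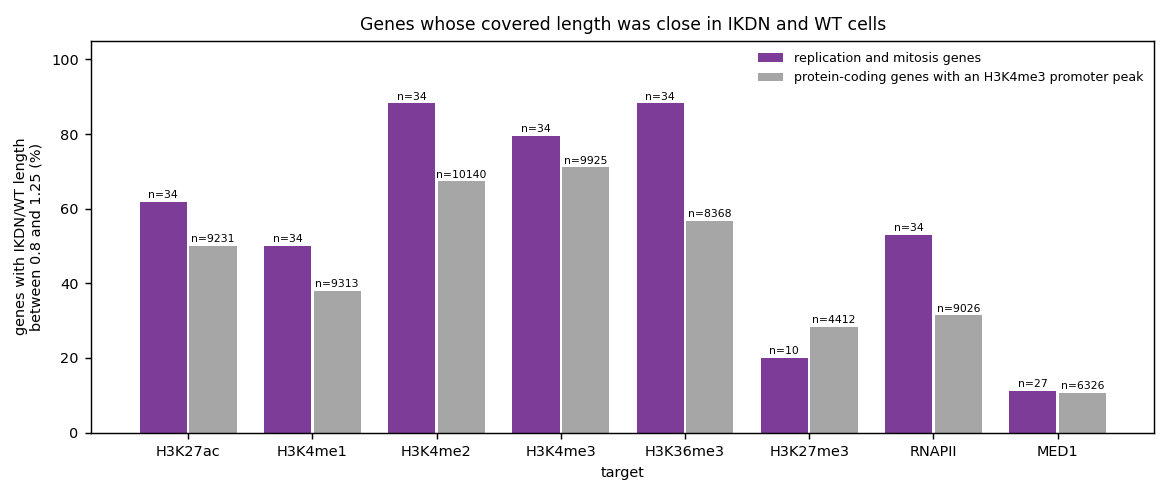
Share of genes in per cent whose covered length over the gene body and 10 kb flanks had an IKDN to WT ratio between 0.8 and 1.25, for the 34 genes (purple) and for active genes (grey), with n the genes covered in both genotypes. The 2 sets stand furthest apart for H3K36me3 (88.2% and 56.6%), RNAPII (52.9% and 31.4%) and H3K4me2 (88.2% and 67.3%), and H3K27me3 rests on 10 members.

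RNAPII was called lower at most of the E2F and RB genes. By nearest-gene name 5 of 7 were lower and 1 higher, and 5 of 12 mitotic genes were higher and 2 lower. Over gene body and flanks, where 23.7% of active genes were higher and 20.6% lower, the 7 E2F and RB genes had 138.4 kb in IKDN and 250.0 kb in WT, and 5 of them were called lower and none higher. E2f7 had 13.0 kb in IKDN and 41.9 kb in WT, with short scattered peaks in IKDN and peaks over nearly the whole gene in WT. E2f2 had 18.5 kb in IKDN and 34.4 kb in WT, E2f3 38.8 and 66.3 kb, Rb1 14.1 and 31.7 kb, and Rbl1 21.9 and 35.5 kb, in IKDN and then WT. E2f1 (15.4 kb in IKDN, 18.0 kb in WT) and E2f8 (16.8 and 22.1 kb) were below WT without reaching the threshold. By name E2f1 was called higher, with 6.66 kb in IKDN and none in WT. The 12 mitotic genes had 233.6 kb in IKDN and 199.0 kb in WT, with 4 higher (33.3%) and none lower. All 4 are shorter than 20 kb, a length at which 30.3% of active genes were higher. The 12 also include longer genes, so the 2 shares are not of like sets. Plk1, a kinase of spindle assembly and cytokinesis, had 17.7 kb in IKDN, where 1 peak covered the whole gene, and 5.72 kb in WT, where peaks lay at the start and beyond the middle. Aurka, the centrosome kinase, had 15.3 kb in IKDN and 3.20 kb in WT, Aurkb, the kinase of the chromosomal passenger complex, 15.2 and 9.28 kb, and Cdc20 13.9 and 4.35 kb. By name Cdc20 went the other way, with none in IKDN and 1.85 kb in WT, and was called lower, while Aurkb was not called, with 11.4 kb in IKDN and 7.96 kb in WT. Among the 15 G1/S genes Cdk2 was higher, with 13.0 kb in IKDN and 5.93 kb in WT, and Rrm1 lower, with 18.4 kb in IKDN and 40.9 kb in WT. Aurka, Cdk2 and Cdc20 each overlap another gene (Cstf1, Pmel and Elovl1), and Ern2 ends 9 bases from Plk1, so their flanks hold other genes' RNAPII as well.

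The direction of the RNAPII calls moved with gene length. All 6 genes called lower were 20 kb long or more, and all 5 called higher were shorter than that. Of 5967 active genes of at least 20 kb, 18.8% were higher and 28.7% lower, and of 4499 shorter ones 30.3% were higher and 9.89% lower, against 23.7% and 20.6% over all. Of the 12 long members 6 were lower and none higher, and of the 22 short members 5 were higher and none lower. Long members outside the E2F and RB group were mostly not called: Top2a had 36.3 kb in IKDN and 37.7 kb in WT, Mki67 37.4 and 37.5 kb, and Bub1b 25.3 and 24.9 kb. The 20 kb division was chosen after the values were seen. RNAPII was inferred to be sequenced less deeply in IKDN, and the part of gene length and depth in the difference between roles was not tested. Of the 5 E2F and RB genes lower for RNAPII, E2f3 was also called lower for H3K36me3 by name (26.9 kb in IKDN, 42.6 kb in WT), and none was within gene body and flanks, where E2f3 had 43.1 kb in IKDN and 59.1 kb in WT and E2f7 39.8 and 41.1 kb.

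**Figure D4:**
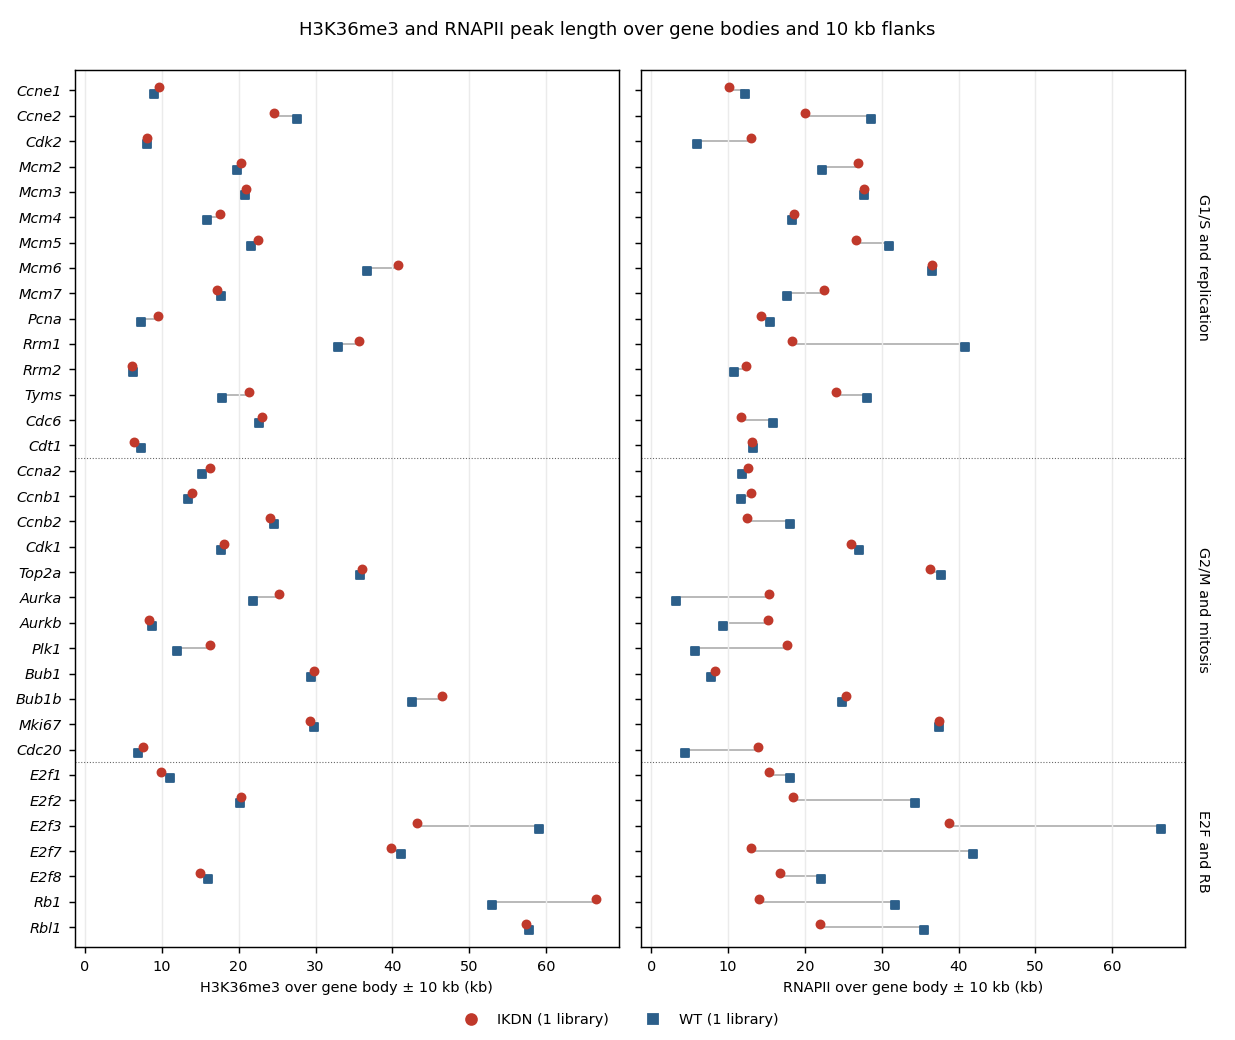
Covered length in kb of H3K36me3 and RNAPII peaks of any name within each gene and its 10 kb flanks, with IKDN as red circles and WT as blue squares (1 library each), grouped by role. H3K36me3 pairs lie within a factor of 1.25 at 30 of 34 genes and stand apart at E2f3 and Rb1, while RNAPII is lower in IKDN at E2f2, E2f3, E2f7, Rb1, Rbl1 and Rrm1 and higher at Cdk2, Aurka, Aurkb, Plk1 and Cdc20.

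MED1, the Mediator subunit, covered more of these genes in IKDN cells, as it did genome-wide. The sum was 63.3 kb in IKDN and 28.4 kb in WT, and 15 genes were higher and none lower. The median ratio of the 25 genes covered in both was 1.79, and that of 5461 active genes 1.90. The IKDN list is also the longer one, with 24239 peaks against 12105 in WT, at inferred sizes of 33.8 Mtags in IKDN and 30.5 in WT. With equal numbers of top-scored peaks 13 members were higher and none lower, where 27.2% of active genes were higher and 2.43% lower. The kilobase around the start site held MED1 at 28 of 29 genes in IKDN and 21 of 29 in WT, where active genes had 78.9% and 49.3%. Aurkb had 6.15 kb in IKDN and 1.38 kb in WT, and E2f2 4.79 and 2.05 kb. Tyms, the thymidylate synthase gene, had 2.74 kb, Cdk1 1.54 kb and Cdk2 1.14 kb in IKDN, and by name all 3 had no MED1 peak in WT. Over gene body and flanks Cdk2 had 2.57 kb in IKDN and 1.31 kb in WT, while Tyms and Cdk1 still had none in WT. Aurka had none in either genotype by name, and Ccnb2 had no peak in IKDN and one of 0.50 kb in WT.

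H3K27me3 was assigned to a minority of the members. By name 13 had any in IKDN and 12 in WT, with no peak centred within 1 kb of a start site. Active genes had any at 45.4% in IKDN and 55.7% in WT, and a peak so centred at 14.0% and 17.1%. Mki67 had 15.9 kb in IKDN and 24.2 kb in WT, E2f3 8.06 and 15.9 kb, Rbl1 5.10 and 14.5 kb, Mcm3 5.61 and 10.2 kb, and Ccna2, the cyclin A gene, 0.762 and 4.18 kb, in IKDN and then WT, and these 5 were the ones called lower. Ccne1, which codes for cyclin E1, was higher, with 15.2 kb in IKDN and 8.70 kb in WT. Over gene body and flanks lengths were smaller: Mki67 had none in IKDN and 3.41 kb in WT, E2f3 had none in either, and Ccne1 had 2.55 kb in IKDN and 1.81 kb in WT.

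The factors differed in how often their peaks lay within 1 kb of a member's start site. TEAD1, the DNA-binding partner of the Hippo effector YAP, lay at 27 of the 34 promoters in IKDN and 19 in WT, against 52.8% and 34.7% of active genes. The IKDN-only promoters were Ccnb2, E2f2, Mcm3, Mcm5, Mki67, Plk1, Top2a and Tyms, and no promoter had TEAD1 in WT alone. For no factor was the share of active genes with a peak in a single genotype computed. Such promoters are therefore a list of names and not a trait of the members. The IKDN TEAD1 list is longer (47764 peaks, against 33532 in WT). With equal numbers of top-scored peaks the counts were 24 in IKDN and 19 in WT. The share of active genes was not computed at that setting, and the part of list length was not tested. By role TEAD1 lay at 14 of 15 G1/S, 10 of 12 mitotic and 3 of 7 E2F and RB promoters in IKDN, against 11, 6 and 2 in WT. Ranked by score within its list the IKDN peak at Mcm7 lay at percentile 95.8 and that at Rrm2 at 95.5, while the IKDN-only peaks at Mcm5, Mki67 and Plk1 lay at 27.4. IRF4, a lymphoid interferon regulatory factor, lay at 22 promoters in IKDN and 17 in WT (active genes 58.8% and 40.4%), with Ccne1, Cdk1, E2f2, Mcm2, Mki67 and Plk1 in IKDN alone and Rrm2 in WT alone. With equal numbers of top-scored peaks IRF4 lay at 10 promoters in IKDN and 17 in WT, which turned the order of the genotypes.

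PAX5, ETS1 and EBF1, factors of the B lineage, lay at equal or nearly equal numbers of members in both genotypes. The PAX5, ETS1 and E2A lists were compared only on chromosomes that both genotypes' lists cover, and the other chromosomes were not analysed for them. PAX5 lay at 31 of 33 promoters in IKDN and 30 of 33 in WT, with 30 in common (active genes 84.8% and 79.0%). ETS1 lay at 25 of 28 in IKDN and 25 of 28 in WT, with 24 in common (77.4% and 68.9%). EBF1 lay at 8 of 34 in IKDN and 8 of 34 in WT, with 6 in common, E2f3 and Rb1 in IKDN alone and Mcm6 and Rbl1 in WT alone (21.6% and 21.2%). E2A lay at 6 of 13 in IKDN and 8 of 13 in WT, with Aurkb and Cdc6 in WT alone. Active genes had E2A at 24.5% in IKDN and 53.5% in WT. E2A in IKDN, PAX5 in both genotypes and IRF4 carry the same antibody catalogue entry in the labels, and ETS1 in IKDN, E2A in WT and LHX2 share another, so which factor each of these lists maps rests on the titles.

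**Figure D5:**
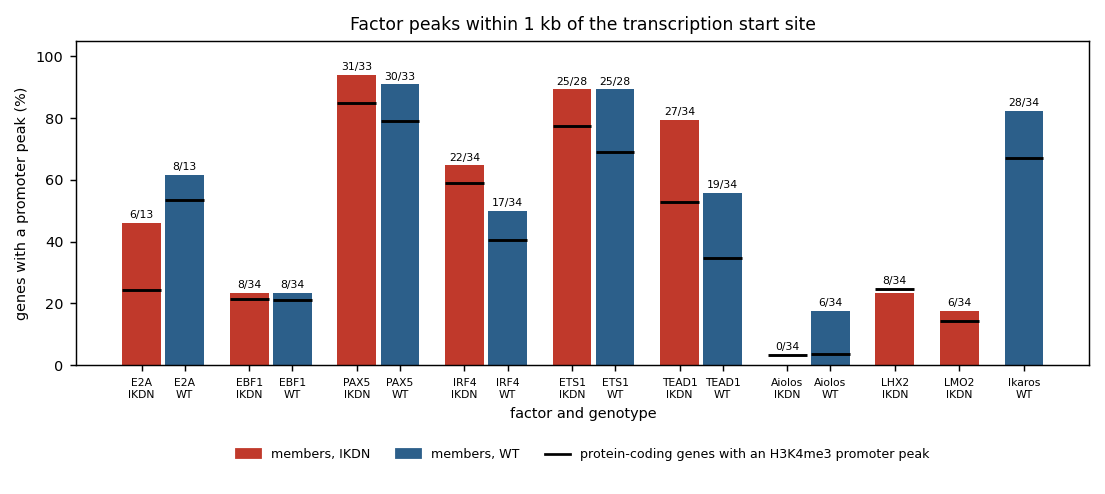
Share in per cent of the members with a factor peak centred within 1 kb of the start site, for IKDN (red) and WT libraries (blue), with counts above the bars and black lines at the share of active genes. TEAD1 is above its line in both genotypes, at 27 of 34 in IKDN and 19 of 34 in WT, and Aiolos has 0 in IKDN and 6 in WT.

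Ikaros, mapped in WT cells only, lay at 28 of the 34 promoters (82.4%), against 67.0% of active genes. It was at 14 of 15 G1/S, 8 of 12 mitotic and 6 of 7 E2F and RB promoters. Its highest-ranked promoter peaks were at Pcna (percentile 97.3 of the Ikaros list), Tyms (97.1), E2f3 (96.3), Cdk2 (96.2), Rb1 (95.5) and Cdt1 (89.3), followed by Mcm3 at 87.1. Aiolos, an Ikaros relative that rises as pre-B cells differentiate, lay at none of the 34 promoters in IKDN and at those same 6 in WT cells, where active genes had it at 3.38% in IKDN and 3.75% in WT. The single IKDN Aiolos peak given to a member lay 5.29 kb downstream of the E2f2 start. All 6 Aiolos peaks overlapped an Ikaros peak, as did 52.8% of the 3491 WT Aiolos peaks used. The Aiolos lists are the shortest, with 2802 peaks in IKDN and 3514 in WT, and by overlap with the kilobase around RefSeq start sites the counts were 1 in IKDN and 5 in WT of 29. At E2f8 and E2f2 Ikaros peaks also lay in the regions that differed: near 27 and 18 kb upstream of E2f8, where H3K27ac was shorter in IKDN, and near 5 kb downstream of the E2f2 start, within the WT H3K4me3 stretch. Ikaros peaks at any distance were given to 32 of the 34 members and to 84.1% of active genes. Those in regions that did not differ were not counted, and a link was not tested. LHX2 and LMO2, mapped in IKDN cells only, lay at 8 and 6 promoters (active genes 24.8% and 14.4%), LMO2 at 5 of the G1/S genes and at no E2F or RB gene.

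Other genes of the same pathways, listed by role and not by how they moved, gave counts of the same order. Of 30 other replication genes 6 were higher and 4 lower for H3K27ac, led by Rfc3, a subunit of the clamp loader, with 7.51 kb in IKDN and 2.11 kb in WT, and by Chaf1a, a histone chaperone, with 4.27 and 2.43 kb. Among those lower, Orc6, of the origin recognition complex, and Mcm8 had none in IKDN, against 2.75 and 2.37 kb in WT. Of 32 other mitosis genes 3 were higher and 4 lower. Kif23, a kinesin of the central spindle, had 14.1 kb in IKDN and 4.94 kb in WT, and RNAPII there was 24.2 kb in IKDN and 3.59 kb in WT. Ndc80, of the kinetochore, had 3.85 kb of H3K27ac in IKDN and 9.29 kb in WT, and the condensin gene Ncapd2 0.50 and 4.19 kb. For H3K36me3 replication genes had 3 higher and 4 lower and mitosis genes 2 higher and 4 lower, and for RNAPII the counts were 6 higher and 8 lower, and 10 higher and 7 lower. All of these are by nearest-gene name. By that measure 17.8% of active genes were higher and 13.4% lower for H3K27ac. The shares were 25.2% and 7.67% for H3K36me3, and 24.8% and 21.6% for RNAPII. The H3K27ac counts of the other replication genes were near the background.

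Genes that decide on entry into the cycle included some of the largest differences in length. Of 28 genes of entry and restraint 4 were higher and 8 lower for H3K27ac, where 17.8% of active genes were higher and 13.4% lower. Of the 24 covered in both lists 7 lay within a factor of 1.25, where 18 of the 34 members did. The share of active genes within that factor was not set beside these counts. The difference between the entry genes and the members was not tested. Ccnd3, which codes for the cyclin D3 that pre-B cells use, had 28.8 kb in IKDN and 68.5 kb in WT, with RNAPII at 17.4 kb in IKDN and 87.1 kb in WT and H3K36me3 at 14.0 and 37.8 kb. Ccnd1, the cyclin D1 gene, had 17.3 kb of H3K27ac in IKDN and 8.26 kb in WT, and its H3K27me3 was 0.627 kb in IKDN and 23.4 kb in WT. Ccnd2 had no H3K27me3 in IKDN and 13.6 kb in WT. The inhibitor genes Cdkn2a and Cdkn2b had 72.8 and 58.0 kb of H3K27me3 in IKDN, against 39.3 and 13.5 kb in WT, and Mycn 35.0 kb in IKDN and 5.79 kb in WT. Cdkn1b, which codes for the CDK inhibitor p27, had 6.91 kb of H3K27ac in IKDN and 2.77 kb in WT. Rbl2, the third member of the RB family, had 7.84 kb of RNAPII in IKDN and 57.5 kb in WT, and Cdk6, a kinase partner of D cyclins, 75.1 kb in IKDN and 22.9 kb in WT. All lengths of these entry genes are by nearest-gene name and were not taken over gene body and flanks. At the members, 12 of the 15 IKDN peaks whose WT counterpart carried another gene's name were RNAPII peaks.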

How the data were processed

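Chromatin immunoprecipitation libraries of IKDN and WT cells, 1 per genotype and target, were deposited as HOMER-annotated peak lists, per the file headers. Each list gives a position, a nearest gene and a peak score by the authors, whose scale is not given in the sources used here. The builds mm9 and mm10, HOMER, the aligners BWA and STAR, and bcl2fastq 1.8.3 appear in the submitters' processing notes, and 99.7% of 27948 peaks of one list implied start sites that fit GRCm38. The aligner used for each library is not given in the sources used here. From the 33 lists, with python 3.11.15, pandas 2.3.3, numpy 2.4.6 and scipy 1.17.1, the base pairs covered by peaks were summed per gene name and target, overlaps once, and a gene was called at a difference of 1000 bp and 1.5 times. The calls were tested on simulated peaks. A second measure took peaks of any name over the RefSeq gene body and 10 kb on each side. Promoter peaks were centred within 1 kb of the start site. Names differ between lists: of 473 IKDN member peaks that overlapped a WT peak, 15 overlapped one named for another gene. Library sizes were inferred from score steps and carry that assumption. Alternatives were the gene window, distance to the start, score, equal list lengths, call size and overlap. The 34 genes, the other gene lists and the marker lists were chosen with earlier results of these data known. All 34 genes could be named, of other genes up to 3 called gains and losses per target, and of markers those with most H3K27ac. The input libraries have no list here and were not used.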

Additional observations from a re-analysis of the deposited data

How the results depend on the processing

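No paired analysis was possible because each genotype has 1 library per target, so no replicate could be left out either. Alternatives are given as genes called higher minus genes called lower in IKDN, and the cause of each change was not tested. For H3K27ac (1 as reported) the balance was -1 over gene body and flanks, 0 within 2.5 kb of the start, 0 with equal numbers of peaks, 2 by number of peaks and 0 with scores of 10 or more. For H3K4me1 (-2) it was -4 over gene body and flanks, 0 within 2.5 kb, 1 with the top-scored 50% and 2 by number of peaks. For H3K4me2 (-1) it was -2 over gene body and flanks, 2 within 2.5 kb and 0 at 2000 bp and 2 times. For H3K4me3 (-2) it was 0 within 2.5 kb, and -1 with the top-scored 50%, at 2000 bp and by number of peaks. For H3K36me3 (0) it was -1 at 2000 bp and 2 by number. For H3K27me3 (-4) it was 0 within 2.5 kb and -2 at 2000 bp. For RNAPII (-2) it was -1 over gene body and flanks, 4 within 2.5 kb, 0 with the top-scored 50%, 0 at 2000 bp and 6 by number. For MED1 (15) it was 4 at 2000 bp and 4 by number. The other 29 of these values were close to those reported.

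Promoter counts moved with the top-scored 50% of each list, to 1 for IKDN E2A, 7 for IKDN IRF4, 8 for WT IRF4, 5 for WT EBF1, 3 for WT Aiolos, 3 for LHX2 and 1 for LMO2. Within 2.5 kb EBF1 lay at 13 members in IKDN and 13 in WT. With equal numbers of peaks IRF4 lay at 10 in IKDN. By overlap with RefSeq start sites Aiolos lay at 1 in IKDN. Peak sharing with the top-scored 50% was 97.7% in IKDN and 97.6% in WT for H3K27ac, 100% and 97.7% for H3K4me2, 92.5% and 91.5% for H3K36me3, and 100% in WT for H3K4me3 and for MED1. By any overlap of whole lists it was 87.7% in IKDN and 84.4% in WT for H3K4me2 (all peaks 75.4% and 75.7%). For H3K36me3 it was 76.2% and 83.8% (57.9% and 82.0%), and for H3K4me3 100% and 90.7% (87.1% and 81.8%). MED1 had 57.4% and 90.0% (34.8% and 72.7%). Requiring 50% of both peaks, sharing was 61.3% in IKDN and 65.9% in WT for H3K4me1, 76.9% in IKDN for H3K4me2, 52.4% and 56.3% for H3K36me3, 45.8% in IKDN for H3K27me3, 28.7% and 35.5% for RNAPII, and 36.2% and 56.7% for MED1. By any overlap it was 78.5% in IKDN and 78.4% in WT for H3K4me1 (all peaks 67.9% and 70.3%). For H3K27me3 it was 68.8% and 47.6% (40.8% and 44.3%), and for RNAPII 83.4% and 70.2% (60.9% and 54.0%). Shares over all peaks were not computed with the top-scored 50% or with 50% of both peaks. The score minimum and the RefSeq overlap were chosen after seeing the data. Peak lists hold no reads, so a missing peak is not an absent signal.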
